A study of Mus musculus with 33 samples.

Results

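Potassium channel genes were examined in enteric neural crest cells (ENCCs), the progenitors of the gut's own nervous system, with and without GDNF, and in whole embryonic gut. The genes were taken by name: each probe set (the group of array probes that reads 1 transcript) whose platform annotation gives exactly 1 symbol, made of Kcn, further letters and a number, was kept, and the probe sets of a gene were averaged into its score. This gave 80 genes on 158 probe sets, among 18193 genes on 34945 probe sets with 1 symbol and 45101 probe sets on the array. Of the 80 genes, 35 had 1 probe set and 45 had several, up to 5. The rule uses no measured value, although earlier results of these data were known when the genes were chosen.

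The 3 groups were all of C57BL/6 background and embryonic day 14.5. GDNF-treated ENCCs came from embryos that carry Wnt1-Cre and a floxed R26-YFP reporter, in which cells descended from Wnt1-expressing neural crest are labelled; the YFP cells of 1 gut were sorted, plated on fibronectin with FGF, EGF, N2 and B27, split between 2 wells, and 1 well was given 50 ng/ml GDNF. Untreated ENCCs were the other well, with the same medium and no added GDNF. Whole guts, dissected between duodenum and anus from wild-type embryos, were not sorted or cultured, although their cell type field also names neural crest cells. There were 13 arrays of treated wells and 12 of untreated wells, from 18 RNAs of 9 guts, and 8 arrays of whole gut. Titles name 2 batches; 7 RNAs were hybridised in both, and the whole guts only in batch 2. The labels list each gut as a sample of its own but give neither litters nor the number of embryos behind a whole gut RNA, so p-values measure only the spread between these samples. Sorting, culture and cell type all separate ENCCs from whole gut, and their parts cannot be told apart.

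Potassium channels, among them the inward rectifiers (Kcnj), let potassium cross the cell membrane. They set the resting potential, shape the action potential and time repeated firing. Voltage-gated families (Kcna, Kcnc, Kcnd, Kcnh, Kcnq) open on depolarisation, calcium- and sodium-activated families (Kcnma, Kcnn, Kcnt) follow ion entry, two-pore channels (Kcnk) carry background current, and auxiliary subunits (Kcnab, Kcnip, Kcne, Kcnmb) alter the pore subunits they bind. GDNF is a growth factor that acts on ENCCs through the receptor Ret and promotes their survival, migration and differentiation into neurons.

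Each deposited value is a score, not a level: the values of every array are the normal quantiles of their ranks, from -4.084 to 4.084, and ENCC values were first centred and scaled per probe set within a batch. These steps were read from the values. A difference of 1 is therefore about 1 SD of a probe set's spread among ENCC arrays, no fold change can be given, scores of different genes are not levels to be compared, and whether a gene is detected at all cannot be read. A gene was called when its Benjamini-Hochberg adjusted p over all 18193 genes, from limma, was below 0.05. The ± values of GDNF differences are SDs over 9 guts. In bulk samples, fewer cells of a type and less RNA per cell cannot be told apart.

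The first comparison asked which channel genes differed in wells with GDNF. Across the 9 pairs of wells, 27 of the 80 genes were higher with GDNF and 4 were lower, where 18.3% of all genes were called higher and 13.2% lower. The median difference of the 80 genes was 0.33, against 0.00548 over all genes. In all 9 guts the treated well was the higher one for 17 of the 80 genes (11.7% of all genes), and the lower one for 2 (6.14% of all genes). Among pore-forming and modifier subunits, 22 of 66 were higher and 2 lower; among auxiliary subunits, 5 of 14 were higher and 2 lower.

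Kcnh2, which encodes the ERG1 channel that repolarises the action potential, had the largest difference. Its scores in treated wells were lowest 0.317, median 0.593 and highest 1.37, against lowest -2.11, median -1.09 and highest -0.658 in untreated wells. The groups did not overlap: each treated well lay above every untreated well. The mean difference was 1.97 ± 0.472 (n = 9 guts, limma adjusted p = 6.45e-05), and it was 1.92 within batch 1 and 2.02 within batch 2. Kcnh2, Kcnk2, Kcnc2 and Kcnt2, the largest by mean, each rest on a single probe set, while genes with several are averages. Single Kcnq5 and Kcnd2 probe sets differed by as much as 1.95 and 1.81. Scores are scaled to the ENCC spread, and the largest difference over all genes was 2.255, so this order is not one of fold change.

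Kcnk2 encodes TREK-1, a two-pore channel opened by stretch and by lipids. Treated wells scored lowest -0.546, median 0.816 and highest 1.2, and untreated wells lowest -2.25, median -1.31 and highest -0.55. The groups did not overlap, but the treated well of gut 1 lay only just above the highest untreated well. The difference averaged 1.88 ± 0.584 (n = 9, limma adjusted p = 7.77e-05). Kcnk10, the related TREK-2, was also higher (1.52 ± 0.51, n = 9, limma adjusted p = 0.000191).

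Kcnc2 encodes Kv3.2, a channel of neurons that fire fast. Its scores were lowest 0.538, median 0.857 and highest 1.08 with GDNF and lowest -1.29, median -0.948 and highest -0.796 without. No treated well fell among the untreated wells, and the gut-to-gut spread of the difference was narrow (1.79 ± 0.317, n = 9, limma adjusted p = 6.45e-05).

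**Figure D1:**
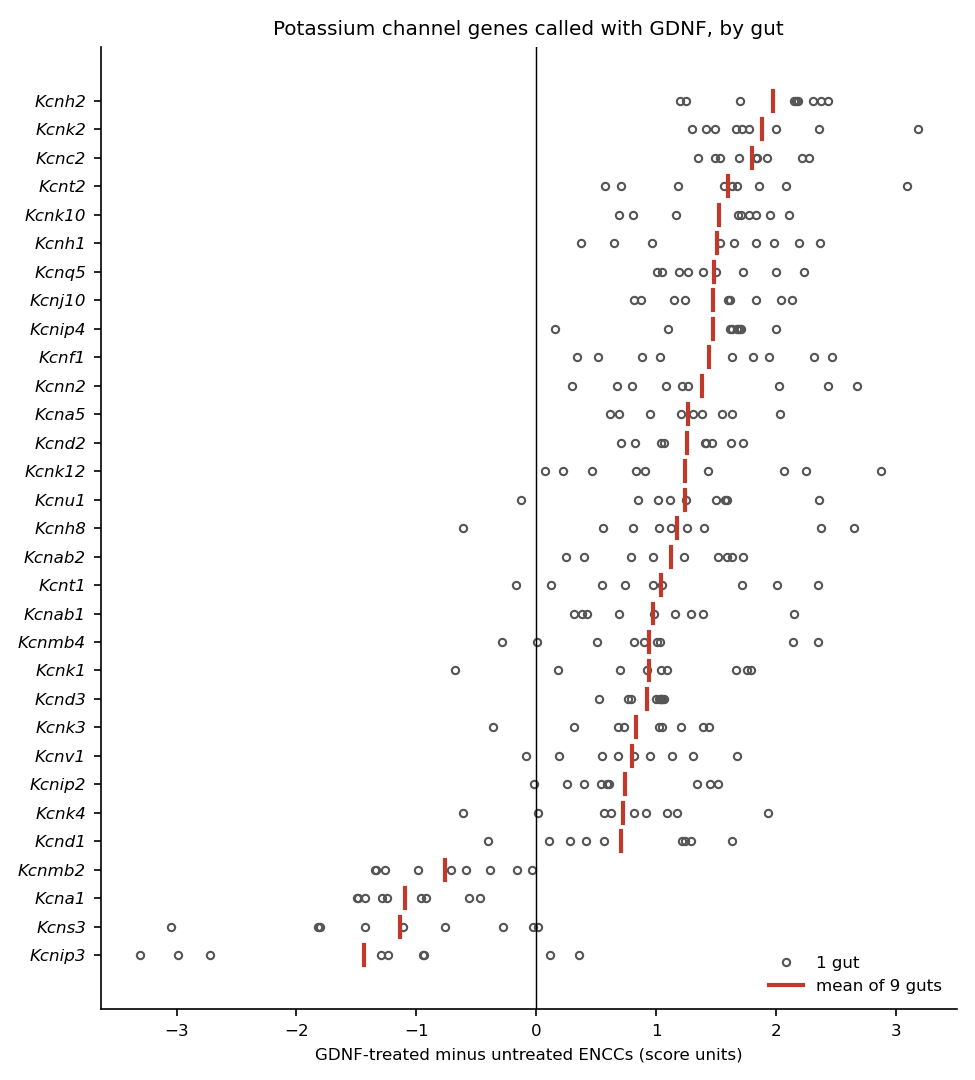
Difference in score between the GDNF-treated and the untreated well of each gut (horizontal axis, score units) for the 31 potassium channel genes called, from the highest to the lowest mean; open circles are single guts and the red bar is the mean of 9 guts. The 27 genes above Kcnmb2 lie mostly to the right of 0 and the 4 lowest mostly to the left, with Kcnip3 spread from -3.31 to 0.358.

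The promoter window of Kcnh2 is shown because this gene led the comparison. The 250 bases before its start (RefSeq, GRCm38.p6) are printed with GGGCGG, the GC box bound by Sp1-type factors, in capitals:

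Kcnh2 (chr5:24329592-24329841, minus strand): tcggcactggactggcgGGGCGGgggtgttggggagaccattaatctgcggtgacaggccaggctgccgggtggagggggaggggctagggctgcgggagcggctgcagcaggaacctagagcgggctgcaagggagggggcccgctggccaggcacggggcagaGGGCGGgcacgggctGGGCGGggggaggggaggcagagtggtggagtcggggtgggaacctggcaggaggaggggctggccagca

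The window holds 3 GC boxes, counting both strands, and is 73.6% G or C. Of 86 windows that RefSeq lists for 61 of the 80 genes, 44.2% hold a GC box, and 32.7% of all 32851 windows do. The median window of the channel genes was 58.6% G or C and that of all windows 52.4%, and a motif made of G and C is found more often where those bases are common. For the E-box, CANNTG, the shares were 67.4% and 66.2%, and for the TATA box, TATAAA, 3.49% and 12.4%.

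Among voltage-gated pore subunits, all 3 measured Kcnd genes, which carry the fast A-type current, were higher with GDNF, where 18.3% of all genes were. Kcnd2 differed by 1.25 ± 0.357, Kcnd3 by 0.92 ± 0.187 and Kcnd1 by 0.703 ± 0.672 (n = 9 each). For Kcnd2, 3 probe sets differed by 1.56 to 1.81 and were called when taken singly, while the fourth differed by -0.0939 and was not. The Kcnd3 mean rests on 2 of 4 probe sets, at 1.25 and 1.75, while those at 0.155 and 0.528 were not called singly; of 3 Kcnd1 probe sets, the one at 1.18 was called and those at 0.172 and 0.754 were not. Of the Kcnip genes, whose proteins bind Kcnd channels and sense calcium, Kcnip4 (1.47 ± 0.545) and Kcnip2 (0.741 ± 0.556) were higher, and Kcnip1 (0.479 ± 0.458) did not pass the test. All 3 Kcnip4 probe sets were called singly, and for Kcnip2 1 of 3 was. Dpp6 and Dpp10, membrane partners of the same channels and not named as Kcn genes, were higher as well, by 1.91 ± 0.5 and 1.75 ± 0.289.

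Kcnip3 went the other way. Its protein binds Kcnd channels and also acts in the nucleus as a calcium-sensitive repressor. Treated wells scored lowest -2.12, median -0.898 and highest 0.309, against lowest -0.495, median 0.282 and highest 2.13 in untreated wells. The groups overlapped, and by differences taken inside a batch the treated well was the lower one in 7 of 9 guts. Gut 2 differed by 0.114 in that way, although its scores averaged over batches were -0.327 treated and 0.282 untreated. The Kcnip3 probe sets repeated poorly between batches (correlations of -0.114 and 0.294 over repeated RNAs). The difference averaged -1.44 ± 1.31 (limma adjusted p = 0.00938); it was -1.6 within batch 1 and -0.593 within batch 2.

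The Kcna family, the Kv1 voltage-gated channels, was divided. Kcna1, which encodes the axonal channel Kv1.1, scored lowest -1.17, median -0.403 and highest 0.311 in treated wells and lowest 0.243, median 0.661 and highest 1.07 in untreated wells. In each of the 9 guts the treated well was the lower one, although the treated well of gut 1 lay above the lowest untreated well, that of gut 3. Its difference was -1.1 ± 0.388 (limma adjusted p = 0.00101); 3 of its 4 probe sets differed by -1.53 to -1.62, and the fourth by 0.336 without being called. Kcna5, its neighbour on chromosome 6, was higher with GDNF in 9 of 9 guts (1.26 ± 0.458, limma adjusted p = 0.000523), and Kcna6, on the other side of Kcna1, differed by 0.319 ± 0.64 and was not called. Kcna2, Kcna3, Kcna4 and Kcna7 did not pass the test either. The cytoplasmic Kv1 partners Kcnab1 (0.974 ± 0.597) and Kcnab2 (1.12 ± 0.549) were higher, as were Cntnap2, which anchors Kv1 channels beside the node (1.17 ± 0.634), and Lgi1, a secreted protein of Kv1 complexes (1.62 ± 0.456). Of the Kcnab2 probe sets, the one at 1.65 was called singly and the one at 0.589 was not.

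**Figure D2:**
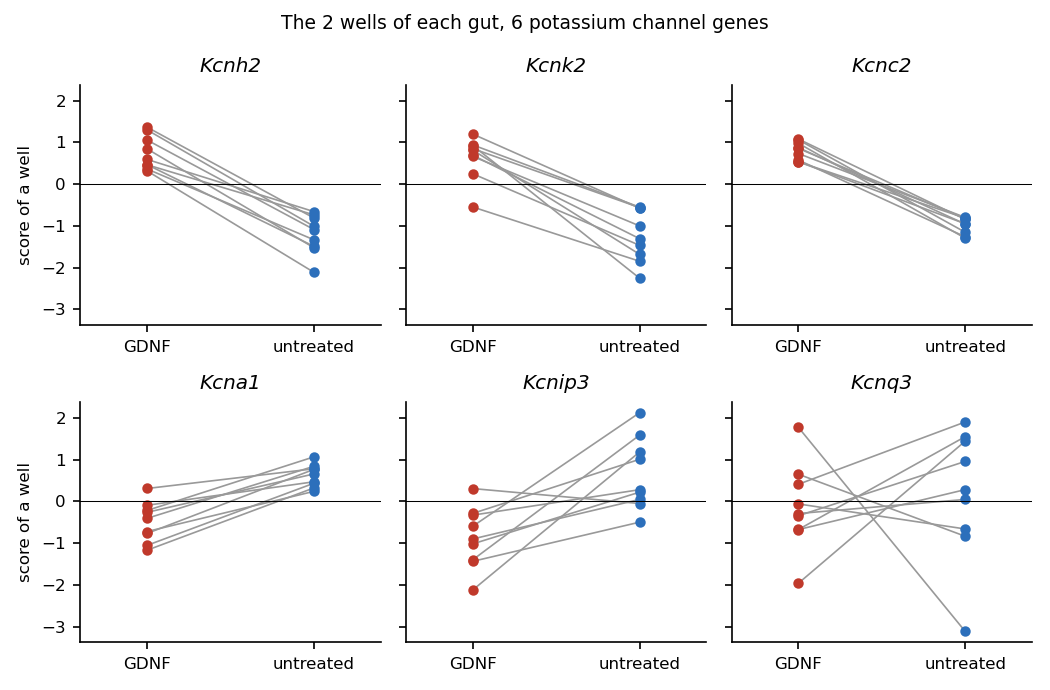
Scores of the GDNF-treated well (left) and the untreated well (right) of each of 9 guts, joined by a line, for 6 genes; each point is the mean over batches of 1 RNA. Kcnh2, Kcnk2 and Kcnc2 were higher in every treated well than in its untreated partner, Kcna1 was lower in every treated well than in its partner, most lines of Kcnip3 rise to the right, and the lines of Kcnq3 cross.

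Other voltage-gated genes called were Kcnh1 (EAG1, 1.5 ± 0.694), Kcnh8 (an ELK channel, 1.17 ± 0.962) and Kcnq5, a subunit of the M-current that damps repeated firing (1.48 ± 0.425, higher in 9 of 9 guts). Kcnq3, another M-current subunit, differed by -0.304 ± 2.43 and was not called: single guts ran from -3.41 to 4.89, the highest being gut 1. Silent subunits, which form no channel alone but modify Kv2 channels, gave 2 higher genes of 9, Kcnf1 (1.44 ± 0.772) and Kcnv1 (0.8 ± 0.547), and 1 lower, near the 18.3% and 13.2% of all genes.

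That lower gene was Kcns3. Treated wells scored lowest -1.65, median -0.47 and highest 0.88 and untreated wells lowest -0.865, median 0.444 and highest 1.58. The groups overlapped; the treated well was lower in 8 of 9 guts, while gut 1 differed by only 0.01. The mean difference was -1.14 ± 1.00 (n = 9, limma adjusted p = 0.0117).

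All 3 genes of the Slo2 and Slo3 branch were higher, where 18.3% of all genes were. Kcnt2 and Kcnt1 encode sodium-activated channels and differed by 1.59 ± 0.755 and 1.04 ± 0.847. The Kcnt1 probe sets at 1.77 and 1.12 were called singly and the one at 0.221 was not. Kcnu1 encodes Slo3, best known from sperm, and differed by 1.23 ± 0.675. Kcnn2, the SK2 channel, which opens on calcium and takes part in after-hyperpolarisation, was higher (1.38 ± 0.816), and Kcnn1, Kcnn3 and Kcnn4 were not called. For the BK channel, the pore gene Kcnma1 depended on the probe set: its 5 probe sets differed by -0.382 to 1.54, and the 2 at 1.24 and 1.54 were called when taken singly. The mean, 0.552 ± 0.991, was not called. Of its partners, Kcnmb4, the neuronal beta subunit, was higher (0.939 ± 0.868), and Kcnmb2, which inactivates the channel, was lower (-0.759 ± 0.505, in 9 of 9 guts).

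Two-pore channels gave 6 higher genes of 12 and no lower one, where 18.3% of all genes were higher and 13.2% lower: besides Kcnk2 and Kcnk10, these were Kcnk12 (1.24 ± 0.979), Kcnk1 (0.939 ± 0.805), Kcnk3 (TASK-1, closed by acid, 0.828 ± 0.573) and Kcnk4 (TRAAK, 0.723 ± 0.72). Taken singly, the Kcnk3 probe set at 1.59 was called and those at 0.0436 and 0.852 were not. For Kcnk1 the probe set at 1.27 was called and the one at 0.605 was not. The only Kcnk4 probe set was not called when fitted among single probe sets (limma adjusted p = 0.0661). It correlated at -0.352 between batches over repeated RNAs. Inward rectifiers gave 1 higher gene of 15, below the share of all genes, and none lower. It was Kcnj10, the Kir4.1 channel known from glia (1.48 ± 0.483, 9 of 9 guts). The other 14, among them the G-protein-gated Kcnj3 (0.272 ± 0.395) and the ATP-sensitive Kcnj8 (-0.0237 ± 0.445) and Kcnj11 (-0.0203 ± 0.949), were not called, nor was any of the 4 Kcne genes.

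Of 11 measured partner genes outside the naming rule, 5 were higher with GDNF and 1 lower, where 18.3% of all genes were higher and 13.2% lower. Abcc8, the sulphonylurea receptor that pairs with Kcnj11, was higher (0.98 ± 0.677), and Abcc9, which pairs with Kcnj8, was lower (-0.69 ± 0.647). Both measured pacemaker channels were higher, Hcn2 by 1.6 ± 1.4 and Hcn3 by 1.61 ± 0.597. The Hcn2 difference was 1.75 within batch 1 and 0.254 within batch 2.

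Markers moved with the same contrast, in which 18.3% of all genes were higher and 13.2% lower. Of 7 neuronal markers 5 were higher with GDNF, and their mean difference was above 0 in each gut, from 0.763 to 2.07. Of 4 glial markers 1 was higher (Fabp7, 1.6 ± 0.389); of 5 mesenchymal markers 4 were lower, with a mean difference of -2.45 to -0.0244 over guts; and of 6 ribosomal protein genes 5 were lower, at -1.86 to -0.32. The 18 hybridisation control probe sets, spiked in at a fixed amount, differed by -2.18 to 0.651 between the wells of a gut. With their mean as a covariate, 22 channel genes were higher and 3 lower (15.4% and 9.87% of all genes). The part of cell composition and RNA quality in the channel gene differences was not tested. Within batch 1 alone (8 guts) 26 genes were higher and 5 lower (17% and 12.2% of all genes). Within batch 2 alone (4 guts) limma called 0 of either, with 14 higher and 2 lower at unadjusted p under 0.05. In that batch it called no gene of all genes tested.

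The next comparisons set each kind of ENCC against whole gut, all in batch 2, with 4 ENCC arrays and 8 whole guts. Scores of the 80 genes spread far more among untreated ENCCs (median SD 0.76) than among whole guts (median SD 0.152). How far the scaling on ENCCs and the ranking set this was not tested. The limma fit of the design uses a spread common to both groups. On data simulated with these unequal spreads it called many unchanged genes, and a fit with array weights by group did so too. A fit with the spread of the ENCC arrays alone was devised after those failures. Channel gene calls of the first 2 fits had been seen by then. This added fit made no call at all on the same simulated data, so it was the strictest of the 3 there. The simulation used spreads of untreated ENCCs only and changed far fewer genes than the real comparisons called. The power of the added fit on the real data may be low, but cannot be read from it. Counts of all 3 fits are given, and "higher" and "lower" below mean called both with the common spread and with the ENCC spread alone. Each of the 80 genes called with the ENCC spread alone was also called with the common spread.

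For GDNF-treated ENCCs against whole gut, the common spread called 37 genes higher and 11 lower (25.1% and 26.0% of all genes), array weights 27 and 7 (16.0% and 15.9%), and the common and ENCC spreads together 25 and 5 (14.7% and 13.1%). For untreated ENCCs against whole gut, the counts were 21 higher and 14 lower (19.8% and 22.8%), 16 and 6 (9.01% and 11.7%), and 12 and 7 (8.70% and 11.9%). All 4 treated arrays lay above all 8 whole guts for 30 genes and below them for 6 (17.8% and 17.1% of all genes); for untreated arrays these were 16 and 9 (12.4% and 15.2%). The 2 comparisons share the whole guts. The ± values of these differences are SDs over the 4 ENCC arrays.

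Kcnq3, a neuronal subunit of the M-current, stood farthest above whole gut. Kcnq3 had scores of -0.335, -0.504, 0.975 and -0.353 in the GDNF-treated wells of guts 2, 3, 8 and 9, 0.96, -0.0495, -1.27 and 1.49 in the untreated wells, and lowest -3.44, median -3.37 and highest -3.33 in the 8 whole guts. Every ENCC array lay above every whole gut. The difference from whole gut was 3.32 ± 0.69 for treated ENCCs (limma adjusted p = 0.00362 with the ENCC spread alone) and 3.66 ± 1.21 for untreated ENCCs (adjusted p = 0.000144). Both of its probe sets were called.

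Kcna4 encodes Kv1.4, an A-type channel of neurons. Kcna4 had scores of -0.321, 0.484, 0.894 and -0.0503 in the GDNF-treated wells of guts 2, 3, 8 and 9, -0.0118, -0.409, -0.171 and -0.0477 in the untreated wells, and lowest -2.67, median -2.51 and highest -2.34 in the 8 whole guts. The ENCC arrays again lay above all whole guts, by 2.76 ± 0.544 on average when treated and 2.35 ± 0.18 when untreated. Over all 9 guts its GDNF difference was 0.299 ± 1.74 and was not called. Its promoter window is shown as that of an ENCC-high gene, with the E-box (CANNTG, read by neurogenic helix-loop-helix factors) and the GC box in capitals, on either strand:

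Kcna4 (chr2:107290339-107290588, plus strand): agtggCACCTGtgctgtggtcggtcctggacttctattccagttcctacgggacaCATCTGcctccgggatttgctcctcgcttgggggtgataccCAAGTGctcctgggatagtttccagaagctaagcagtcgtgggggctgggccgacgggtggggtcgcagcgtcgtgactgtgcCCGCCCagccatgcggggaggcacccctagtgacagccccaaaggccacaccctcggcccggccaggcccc

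It holds 3 E-boxes and 1 GC box, and 65.2% of its bases are G or C. These matches describe the letters and are not evidence of binding.

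Kcnmb4, the neuronal BK beta subunit, was also higher in both kinds of ENCC. Kcnmb4 had scores of 1.01, 1.88, -1.02 and -0.101 in the GDNF-treated wells of guts 2, 3, 8 and 9, 1.3, 0.0125, -0.777 and -1.27 in the untreated wells, and lowest -2.21, median -2.16 and highest -1.99 in the 8 whole guts. ENCC arrays did not overlap the whole guts, though they spread widely. The differences were 2.56 ± 1.27 treated and 1.94 ± 1.12 untreated.

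Kcnt2 and Kcnc2 were among the 4 genes farthest above whole gut in treated cells. Kcnt2 had scores of -0.763, 1.00, 1.7 and 1.29 in the GDNF-treated wells of guts 2, 3, 8 and 9, -1.47, -0.906, -0.622 and -0.255 in the untreated wells, and lowest -2.24, median -2.08 and highest -1.98 in the 8 whole guts. Treated and untreated ENCCs lay above whole gut, by 2.89 ± 1.09 and 1.27 ± 0.513. Kcnc2 had scores of 0.864, 0.723, 1.24 and 1.23 in the GDNF-treated wells of guts 2, 3, 8 and 9, -0.823, -0.877, -1.19 and -0.789 in the untreated wells, and lowest -1.71, median -1.66 and highest -1.61 in the 8 whole guts. Kcnc2 was higher in treated ENCCs (2.68 ± 0.261); in untreated ENCCs it differed by 0.744 ± 0.183 and passed only with the common spread (adjusted p = 0.17 with the ENCC spread alone).

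**Figure D3:**
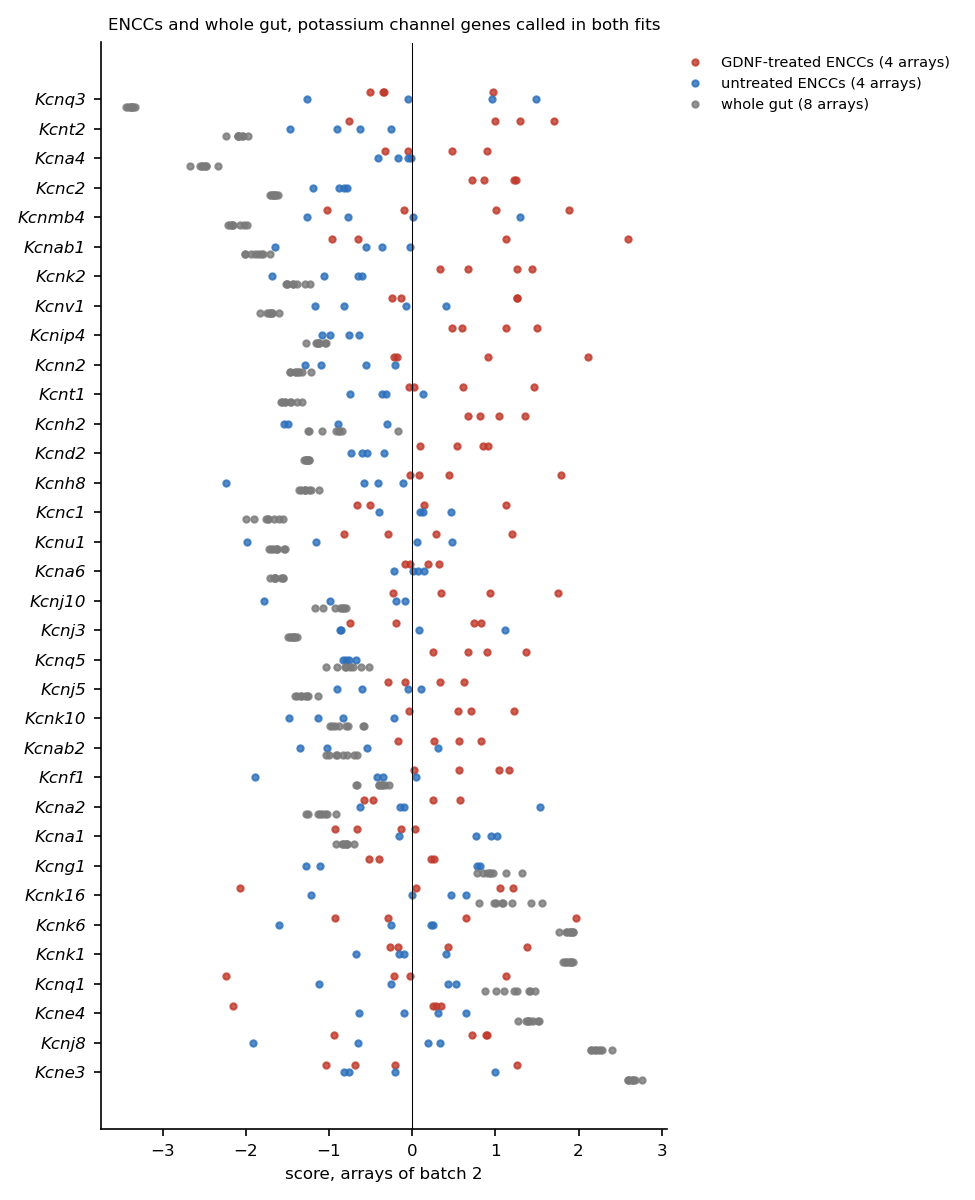
Scores on single arrays of batch 2 (horizontal axis, score) for the potassium channel genes called by both fits in either comparison with whole gut, ordered by the treated difference; red points are 4 GDNF-treated ENCC arrays, blue points 4 untreated ENCC arrays and grey points 8 whole guts. Whole gut points lie close together at the far left for Kcnq3 and at the far right for Kcne3, and ENCC points are spread around 0.

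The Kv1 and Kv3 genes gave 5 of the 12 calls above whole gut in untreated ENCCs. Kcna1 (1.45 ± 0.547), Kcna2 (1.27 ± 0.947), Kcna4 and Kcna6 (1.63 ± 0.16) were higher, 4 of 7 Kcna genes (8.70% of all genes were), with Kcnc1 (Kv3.1, 1.81 ± 0.353) and the Kv1 partner Kcnab1 (1.23 ± 0.706). Treated ENCCs had 1.05 ± 0.558 for Kcna2, 1.72 ± 0.186 for Kcna6, 1.77 ± 0.814 for Kcnc1 and 2.41 ± 1.66 for Kcnab1, all higher, while Kcna1 differed by 0.386 ± 0.45 and was called by neither fit. Without gut 8, Kcna2 differed by 0.815 in untreated ENCCs and was still called with the common spread. With probe sets taken singly in untreated ENCCs, those of Kcna1 at 2.07 to 2.33 were called higher and the one at -0.705 was called lower. Single probe sets ran from -0.459 to 2.72 for Kcna2, from 0.587 to 2.475 for Kcna6 and from -0.0417 to 2.63 for Kcnc1. The lowest of each was not called. With the common spread, Kcna1 in treated ENCCs gained a call without gut 2 (0.465, limma adjusted p = 0.0402), without gut 3 (0.555, limma adjusted p = 0.00566) and with the median of its probe sets (0.364, limma adjusted p = 0.0175). In the untreated comparison Kcnv1 (1.29 ± 0.714), Kcnj3 (1.3 ± 0.944) and Kcnt1 (1.16 ± 0.357) completed the 12.

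In treated ENCCs several genes that rose with GDNF also stood above whole gut: Kcnk2 (2.34 ± 0.513), Kcnip4 (2.05 ± 0.474), Kcnn2 (2.03 ± 1.1), Kcnh2 (1.88 ± 0.298), Kcnd2 (1.87 ± 0.376), Kcnh8 (1.84 ± 0.836), Kcnj10 (1.62 ± 0.845) and Kcnq5 (1.56 ± 0.47). In untreated ENCCs the same genes differed by 0.412 ± 0.497, 0.26 ± 0.207, 0.591 ± 0.494, -0.147 ± 0.584, 0.713 ± 0.168, 0.434 ± 0.955, 0.156 ± 0.789 and 0.00535 ± 0.0666, and none passed both fits. Kcnh2 in treated ENCCs was not called with array weights by group (limma adjusted p = 0.0526). These comparisons share arrays with each other, so they are not independent.

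Whole gut was the higher tissue for Kcne3, which keeps Kcnq1 open in intestinal epithelium. Kcne3 had scores of -0.21, 1.26, -1.04 and -0.69 in the GDNF-treated wells of guts 2, 3, 8 and 9, -0.759, 0.998, -0.823 and -0.208 in the untreated wells, and lowest 2.6, median 2.65 and highest 2.76 in the 8 whole guts. No ENCC array came near the whole guts. The differences were -2.82 ± 1.01 treated (limma adjusted p = 0.00576 with the ENCC spread alone) and -2.85 ± 0.844 untreated (adjusted p = 0.000274). Its partner Kcnq1 differed by -1.56 ± 1.4 in treated ENCCs, which passed only with the common spread, and was lower in untreated ENCCs (-1.33 ± 0.764), where array weights by group gave no call (limma adjusted p = 0.0897).

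Kcnj8 encodes Kir6.1, the ATP-sensitive pore of vascular muscle and pericytes. Kcnj8 had scores of 0.718, 0.898, -0.94 and 0.885 in the GDNF-treated wells of guts 2, 3, 8 and 9, 0.186, 0.331, -1.91 and -0.646 in the untreated wells, and lowest 2.15, median 2.22 and highest 2.4 in the 8 whole guts. All ENCC arrays were below all whole guts, and the differences were -1.84 ± 0.891 treated and -2.74 ± 1.03 untreated. Abcc9, its receptor partner, was lower too (-2.55 ± 0.444 treated, -1.62 ± 0.801 untreated). Over repeated ENCC RNAs, the only probe set of Kcnj8 correlated at -0.728 between batches and that of Kcne3 at -0.673. Scores of single ENCC wells therefore did not repeat for these genes. The Kcnj8 window is shown as that of a gut-high gene, with the E-box and the half-site of the cAMP response element (TGACG) in capitals, on either strand:

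Kcnj8 (chr6:142571615-142571864, minus strand): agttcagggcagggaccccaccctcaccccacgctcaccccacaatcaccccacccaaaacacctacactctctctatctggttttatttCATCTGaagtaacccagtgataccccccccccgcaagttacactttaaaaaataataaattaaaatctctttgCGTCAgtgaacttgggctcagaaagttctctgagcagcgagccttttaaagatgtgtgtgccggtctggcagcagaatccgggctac

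It holds 1 E-box, 1 half-site and no GC box. The half-site is in 15.1% of the channel gene windows and 17.8% of all windows.

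Kcnk6 and Kcnk1 encode the TWIK channels of the two-pore family. Kcnk6 had scores of -0.927, -0.288, 0.651 and 1.97 in the GDNF-treated wells of guts 2, 3, 8 and 9, 0.251, 0.223, -0.252 and -1.6 in the untreated wells, and lowest 1.77, median 1.9 and highest 1.93 in the 8 whole guts. Kcnk6 was lower in untreated ENCCs (-2.23 ± 0.869); in treated ENCCs, where 1 well scored above the whole guts, it differed by -1.53 ± 1.26 and passed only with the common spread. Kcnk1 was lower in both, with differences of -1.54 ± 0.758 treated and -2.01 ± 0.445 untreated.

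Kcne4, an inhibitory partner of Kcnq1, was the remaining gene lower in both. Kcne4 had scores of -2.15, 0.245, 0.35 and 0.281 in the GDNF-treated wells of guts 2, 3, 8 and 9, -0.102, 0.645, -0.641 and 0.306 in the untreated wells, and lowest 1.27, median 1.41 and highest 1.52 in the 8 whole guts. The differences were -1.73 ± 1.22 treated and -1.36 ± 0.554 untreated, and the ENCC arrays did not overlap the whole guts. Between batches the only Kcne4 probe set correlated at -0.0412 over repeated ENCC RNAs. Without gut 2, whose treated well scored lowest, the treated difference was -1.12 and still called with the common spread. Kcng1, a silent subunit, was lower in treated ENCCs (-1.08 ± 0.407) and Kcnk16 in untreated ENCCs (-1.18 ± 0.839). With the common spread in treated ENCCs, the Kcng1 probe set at -2.218 was called singly and the one at 0.05155 was not. Kcnk16 was not called with array weights by group (limma adjusted p = 0.188), and its difference was -0.778 without gut 9. Kcnma1 again depended on the probe set, with differences of -2.21 to 1.08 for untreated ENCCs and calls in both directions.

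**Figure D4:**
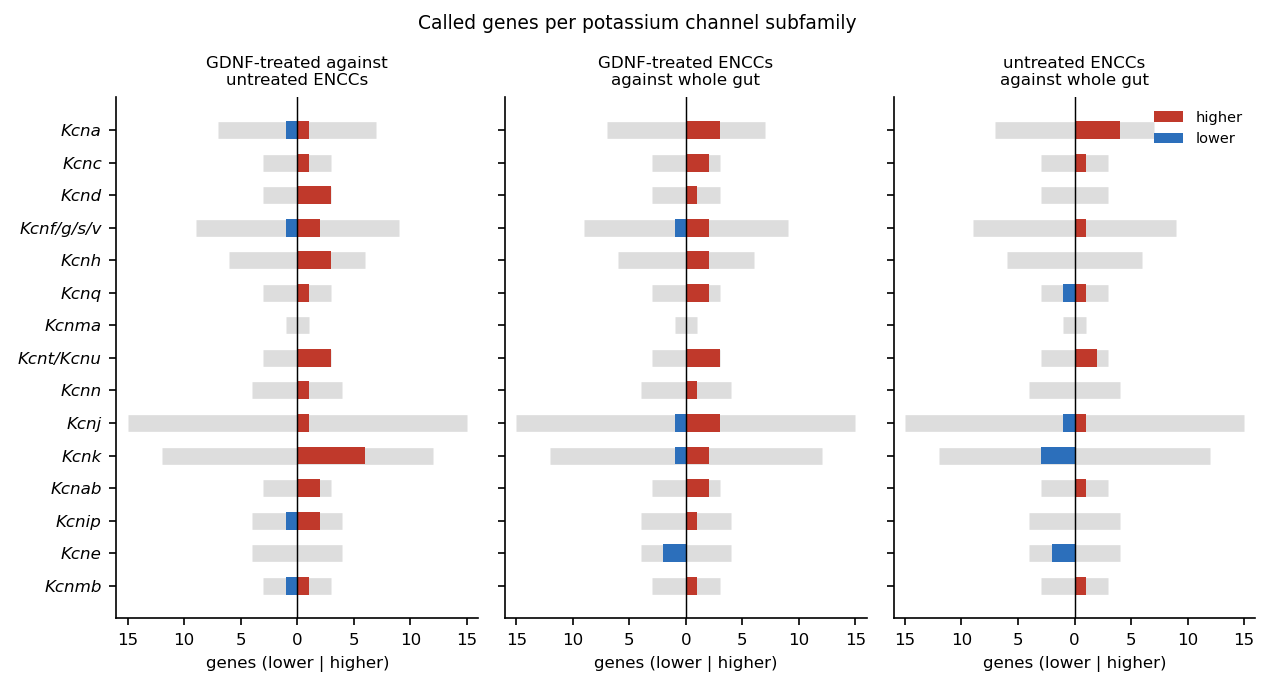
Number of genes called higher (red, right of 0) and lower (blue, left of 0) in each subfamily, with the number measured in grey on both sides, for GDNF-treated against untreated ENCCs, GDNF-treated ENCCs against whole gut and untreated ENCCs against whole gut; calls against whole gut are those of both fits. The Kcnd and Kcnt/Kcnu rows are filled in the first panel, with 3 of 3 genes each, and the Kcne row holds only lower genes in the other panels.

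By subfamily, the 3 Kcnt and Kcnu genes were all higher in treated ENCCs than in whole gut. Of the 4 Kcne genes 2 were lower in each comparison, and of 12 Kcnk genes 2 were higher and 1 lower in treated ENCCs and 0 higher and 3 lower in untreated ENCCs. Over all genes, both fits called 14.7% higher and 13.1% lower in treated ENCCs, and 8.70% and 11.9% in untreated ENCCs, so the treated Kcnk counts are near the shares of all genes.

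Many markers of other gut cells moved with these comparisons, but not all. Both fits called 14.7% of all genes higher and 13.1% lower in treated ENCCs, and 8.70% and 11.9% in untreated ENCCs. All 6 epithelial and all 4 endothelial markers were lower in both kinds of ENCC than in whole gut, and the mean epithelial score was -0.524 to 0.604 in treated ENCCs, -0.859 to 0.275 in untreated ENCCs and 2.94 to 3.04 in whole gut. Of 6 smooth muscle markers, 4 were lower in treated and 3 in untreated ENCCs. Of 5 mesenchymal markers, 4 were lower in treated ENCCs and 0 in untreated ENCCs. The mean mesenchymal score was -1.42 to -0.0257 in treated ENCCs, 0.386 to 1.23 in untreated ENCCs and 0.963 to 1.12 in whole gut. All 7 neuronal markers were higher in treated ENCCs and 4 in untreated ENCCs, and Ret, Elavl4 and the glial gene Sox10 were higher in both kinds. Ribosomal protein genes were lower in treated ENCCs for 4 of 6 and in untreated ENCCs for 0 of 6. The part of these cell types and of RNA quality in the channel gene differences was not tested.

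In none of the 3 comparisons, under the design's fits, were 20 of the 80 genes called: Kcna3, Kcna7, Kcnab3, Kcne1, Kcne2, Kcng2, Kcng4, Kcnh7, Kcnj2, Kcnj4, Kcnj6, Kcnj11, Kcnj13, Kcnj14, Kcnj15, Kcnj16, Kcnma1, Kcnn3, Kcns1 and Kcns2. The list includes 8 of the 15 inward rectifiers. The share of all genes called in none of the 3 comparisons was not counted. Neither number can therefore be read as particular to channel genes. A gene that was not called may still differ by an amount these arrays could not resolve.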

How the data were processed

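RNA of GDNF-treated and untreated ENCCs and of whole guts was read on Affymetrix arrays. Per the submitters' processing notes, the authors used RMA, with no version given; the deposited values are scores, which the values show to be rank-based normal quantiles (largest deviation 5e-06), with ENCCs centred and scaled per probe set within a batch. Probe sets with several symbols (932) or none (9211) were left out, and dim probe sets could not be filtered. The number of arrays limits the precision.

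Differences between the wells of 1 gut were taken inside a batch, averaged over batches and fitted with limma 3.58.1 in R 4.3.3 over all genes. The pairing comes from the labels' protocols, by which 1 gut filled both wells. In batch 1 the deviations of paired wells correlated at 0.025 to 0.305 over genes. Only for guts 5 and 6 was the partner well the best correlated one, so the pairing rests on the labels. Whole guts were set against ENCC arrays of batch 2.

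3 fits were tried against whole gut, in this order: a spread common to both groups (the design), array weights by group, and the spread of ENCCs alone (added). On simulated data the first 2 called many unchanged genes. The last was devised after that, and after channel gene calls of the first 2 were seen, and its own calls were known when it was adopted beside the first. The simulation takes spreads estimated from 4 arrays as true, which exaggerates how unequal they are, and the last fit recovered no change in it. Against whole gut it simulated untreated ENCCs only, and it changed far fewer genes than the real comparisons called. It therefore does not measure power on the real data.

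The members and gene lists were chosen with earlier results of these data known. Genes named were, in each comparison, up to 15 called members on each side by size of difference, and 26 preset names, of which 24 were measured; a few others are named to account for every member of a subfamily. Alternatives tried were the probe set summary, batches, covariate, moderation, and leaving out guts.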

Additional observations from a re-analysis of the deposited data

Results flagged for a closer look

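Single values far from the rest of their group were looked for in 156 groups of 4 to 9 values, and 7 (4.49%) stood apart, where chance gives about 1 in 20. Among GDNF-treated ENCCs of batch 2, Kcnq3 scored 0.975 in gut 8, with the nearest other well at -0.335. Kcnj8 scored -0.94 in the treated well of gut 8, the nearest other being 0.718. Kcne4 scored -2.15 in the treated well of gut 2, the nearest other being 0.245. For Kcnip4, the GDNF difference of gut 1 was 0.158, against 1.1 in the next gut. In whole gut, Kcnt2 scored -2.24 in gut 2 (nearest -2.09), Kcnj11 0.557 in gut 1 (nearest -0.0786) and Kcnh2 -0.169 in gut 4 (nearest -0.839). The causes were not tested.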

How the results depend on the processing

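Without the replicate block, which is the pairing of wells, 22 channel genes were higher and 3 lower with GDNF, against 27 and 4. The shares of all genes were 16.1% and 10.6%, against 18.3% and 13.2%. Batch 2 alone gave 0 higher and 0 lower in limma, with 14 and 2 at unadjusted p under 0.05; it holds 4 guts. Leaving out each gut gave 24 to 27 higher and 4 to 5 lower (16.4% to 18.5% and 11.1% to 13.9% of all genes). Against whole gut, leaving out each sample gave 33 to 37 higher and 10 to 14 lower for treated ENCCs, and 19 to 24 higher and 12 to 16 lower for untreated ENCCs, all with the common spread. Over all genes the same fits called 23.4% to 26.8% higher and 24% to 27.6% lower for treated ENCCs. For untreated ENCCs they called 18% to 24.5% higher and 20.8% to 27.7% lower. Array weights by group gave 7 lower genes for treated ENCCs and 6 for untreated ENCCs, against 11 and 14 with the common spread. The spread of ENCCs alone, chosen after seeing the data, gave 5 lower for treated ENCCs, and 12 higher (against 21) and 7 lower for untreated ENCCs; 25 were higher in treated ENCCs, against 37. The counts with a common spread are thus an upper reading. With probe sets taken singly, also chosen after seeing the data, no gene was called both ways with GDNF, and 2 were in each comparison with whole gut.

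No named gene reversed its direction while called. Kcnmb4 lost its GDNF call without gut 6 (0.789, limma adjusted p = 0.0536), without the doubted batch 2 array of untreated gut 3 (0.823, limma adjusted p = 0.0506), with the hybridisation controls as covariate (0.786, limma adjusted p = 0.129) and without the block (0.921, limma adjusted p = 0.118). Kcnmb2 lost it with the covariate (-0.785, limma adjusted p = 0.0578), with its best correlating probe set (-0.593, limma adjusted p = 0.0882) and without the block (-0.784, limma adjusted p = 0.153), and Kcnab1 without the block (1.00, limma adjusted p = 0.0746). Kcnma1 was called with its best correlating probe set in all 3 comparisons, by 1.24 with GDNF, 2.21 for treated ENCCs and 1.08 for untreated ENCCs. Kcnh2 in treated ENCCs and Kcnq1 and Kcnk16 in untreated ENCCs lost the call with array weights by group, as given above. With the best correlating probe set the difference from whole gut was 2.72 for Kcna2 in untreated ENCCs and -2.22 for Kcng1 and -0.884 for Kcnk1 in treated ENCCs, and the GDNF difference of Kcnk3 was 1.59; all 4 were still called, those against whole gut with the common spread. Repeated RNAs correlated between batches at 0.117 to 0.325 over genes, and untreated gut 3 and treated gut 8 correlated better with another RNA of their group than with their own repeat. The cause of these changes was not tested.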
